A study of Homo sapiens with 2 samples.

Results

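Mitochondrial ribosomal proteins build the mitoribosome, the particle inside mitochondria that translates the few mRNAs encoded by mitochondrial DNA into core subunits of the respiratory chain. The genes named MRPL encode proteins of its large subunit and those named MRPS proteins of its small subunit, although MRPS18A and MRPS30 are now placed in the large subunit and MRPS36 in a metabolic enzyme complex. All of them are nuclear genes. Their mRNAs are translated in the cytosol, so they pass through the nucleus, where RBFOX2, a splicing regulator that binds UGCAUG, is mainly found. The C-to-U edits on these mRNAs are described here.

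The edits come from HEK293T cells, an immortalized human embryonic kidney line (listed as HEK293XT in the cell line field). In the sample named RBFOX2-INSCRIBE here, after the study's name for its method, fixed cells received an antibody against RBFOX2 and then APOBEC1, a cytidine deaminase, fused to a nanobody that holds rabbit antibodies, so that cytosines near RBFOX2 could be converted. In the enzyme-only control the same fusion was applied without that antibody. Each group is 1 PacBio long-read cDNA library, so every difference below compares 2 libraries and not the conditions, no p-value was computed, and all intervals are exact 95% intervals of counting error.

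Members were the protein-coding genes of GENCODE 44 whose symbol starts with MRPL or MRPS and a digit, found by assigning each PacBio isoform locus to the gene with the largest exonic overlap on its strand. Of 78 such genes, 73 had an isoform locus, 47 of them MRPL and 26 MRPS, among 10828 protein-coding genes with a locus. The loci over MRPL46, MRPL53, MRPS24, MRPS28 and MRPS6 were assigned to a neighbouring gene with more overlap, and these 5 genes were not analysed here. MRPS18B had a locus and no listed site. The remaining 72 genes were listed in RBFOX2-INSCRIBE (69 genes, 1052 sites), the enzyme-only control (70 genes, 1113 sites) or both (67 genes). MRPL23, MRPL45 and MRPL50 were not listed in RBFOX2-INSCRIBE, nor were MRPL11 and MRPS17 in the enzyme-only control. Another 21 positions in each library lay off the strand of their member locus, 15 and 17 of them in MRPS11, and were left out. Loci of 6 members (MRPL2, MRPL12, MRPL30, MRPL38, MRPS5 and MRPS17) overlap more than 1 protein-coding gene, so their sites may belong to the other gene.

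A listed site is a position with its number of converted reads and the number of reads of its whole gene. Members had a median of 343 gene reads in RBFOX2-INSCRIBE and 308.5 in the enzyme-only control, and 31210 and 27935 in all. Of the markers chosen for this line, KRT18, NEFM and NEFL were listed in both libraries, VIM in RBFOX2-INSCRIBE alone, KRT8 and PAX2 in the enzyme-only control alone, and LHX1 in neither. None of the 4 markers of other cell types (PTPRC, ALB, COL1A1, PECAM1) was listed, and a gene that is not listed has no value here. A site is listed above a fraction of 0.002 of the gene reads, so a site with 1 converted read appears only in a gene of fewer than 500 reads, 2 converted reads are needed from there, and more at greater depth. The 69 members of RBFOX2-INSCRIBE held 883 unshared sites, which are sites not listed in the other library, against 944 in the 70 members of the enzyme-only control. Unshared sites are meant unless stated otherwise.

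The sequences below are the cytosines of members that were converted in at least 2 reads of RBFOX2-INSCRIBE, were not listed in the enzyme-only control and lay within 50 nt of a UGCAUG. They show where the antibody library had repeated conversions beside the RBFOX2 motif, which is not particular to that library. In MRPL42 the enzyme-only control also had unshared sites of 2 converted reads within 50 nt of a UGCAUG, not shown here. For sites with at least 2 converted reads, observed over expected numbers by the motif were 1.30 (0.36 to 3.29) in RBFOX2-INSCRIBE. In the enzyme-only control this ratio was 1.05 (0.13 to 3.75). Letters are hg38 on the strand of the gene, 5′ to 3′, with T for U. Capitals mark the converted cytosine, the motif TGCATG, or both.
MRPS9, site and motif: gtcataCtattcattaaTGCATGtaagtat
MRPS9, second site: tattttaacagagaCgtgattggcagcag
MRPS9, motif by the second site: tataactctaatTGCATGgctaattaaaaa
MRPL37, site: agcggaggacccctCtgaatcctgaaacc
MRPL37, motif: tagctctatattTGCATGgtgctgcgtgag
MRPL30, site: aaagctgaccaaaaCatggtccccacctt
MRPL30, motif: tgagtggctcttTGCATGaacactgtgcaa

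RBFOX2-INSCRIBE had 4 such sites in 3 genes. In MRPS9, a protein of the small subunit, the first site (chr2:105080041-105080070, plus strand, converted base at 105080047) was a synonymous coding position 11 nt before a motif that spans an exon edge, with 2 converted reads of 213. The second MRPS9 site (chr2:105089909-105089937, base at 105089923) was also synonymous and also had 2 converted reads, 41 nt past a motif that is exonic in a sequenced isoform and intronic in the canonical GENCODE transcript. In MRPL37, a protein of the large subunit, the site lay in the 3′UTR (chr1:54218249-54218277, base at 54218263), 25 nt past the motif, with 3 converted reads of 1082. In MRPL30, also of the large subunit, it lay in the 3′UTR (chr2:99196690-99196718, base at 99196704), 43 nt past the motif, with 2 converted reads of 173.

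UGCAUG was present in a smaller share of members than of other genes, at a similar density per kilobase. It occurred in the exons of 27 of 72 members (37.5%, 26.4 to 49.7), against 4802 of 9106 other protein-coding genes with listed sites (52.7%, 51.7 to 53.8), 36 of 66 cytosolic ribosomal protein genes and 29 of 69 nuclear respiratory chain genes. The median member had 2136.5 nt of merged exons and the median other gene 3114, and per kilobase of exon members held 0.231 motifs and other genes 0.252.

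Sites within 50 nt of a UGCAUG numbered 20 of 881 exonic sites in RBFOX2-INSCRIBE. If sites fell on the exonic cytosines of each gene regardless of the motif, 17.5 would lie there, which makes a ratio of 1.14 (0.70 to 1.76). The enzyme-only library had 12 of 944 against 16.3, a ratio of 0.73 (0.38 to 1.28). In all other genes the same ratios were 1.53 (1.48 to 1.58) in RBFOX2-INSCRIBE and 0.953 (0.912 to 0.995) in the enzyme-only control. The member interval of RBFOX2-INSCRIBE includes both 1 and the value of the other genes, so this number of sites does not separate them. All expected numbers count the cytosines of the merged exons of every isoform alike, including exons that held few or no sites. The baselines of members and other genes may therefore differ. Respiratory chain genes, which are also nuclear genes for mitochondrial proteins, had 2.05 (1.43 to 2.84) in RBFOX2-INSCRIBE and 1.49 (0.95 to 2.22) in the enzyme-only control. Cytosolic ribosomal protein genes had 1.51 (0.73 to 2.74) and 1.47 (0.71 to 2.66). MRPL and MRPS genes taken apart gave 1.16 (0.62 to 1.97) and 1.11 (0.45 to 2.26) in RBFOX2-INSCRIBE.

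**Figure D1:**
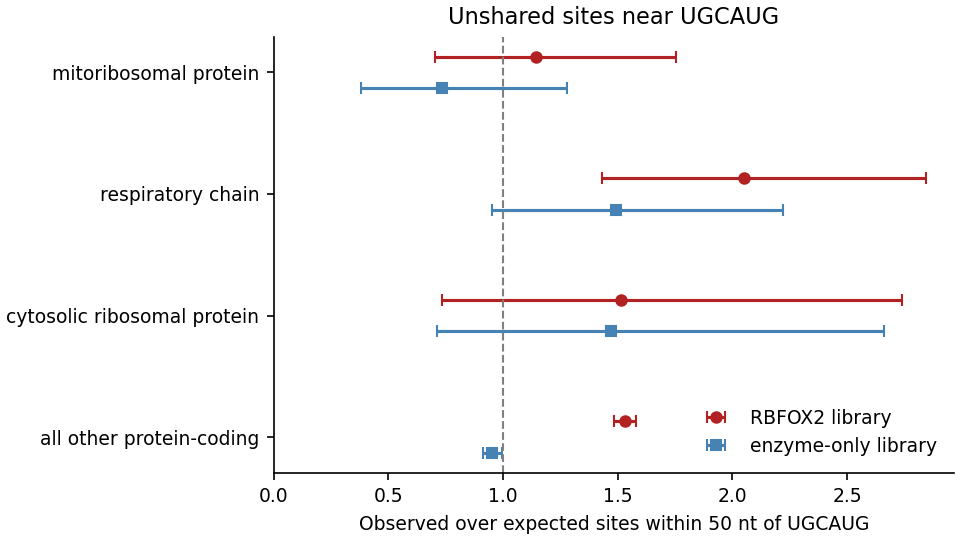
Observed over expected number of unshared exonic sites within 50 nt of UGCAUG, for 4 groups of genes (y axis) in RBFOX2-INSCRIBE (red circles) and enzyme-only control (blue squares), with exact 95% counting intervals and a dashed line at 1. The mitoribosomal value of RBFOX2-INSCRIBE was 1.14 (0.70 to 1.76), and that of all other genes 1.53 (1.48 to 1.58).

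The 20 sites lay around motifs of 7 genes. MRPL30 had 5 sites by its motif where 0.95 were expected from its cytosines, and the enzyme-only control had 2. MRPL14, a protein at the face where the subunits meet, had 4 where 0.79 were expected, and the enzyme-only control had 1. The 0.79 counts all 1092 cytosines of the merged exons of MRPL14. A single MRPL14 isoform with 183 exonic cytosines held all 26 sites of RBFOX2-INSCRIBE and all 11 of the control. The expected number thus depends on which exons are counted, and no excess can be read from it. MRPS9 had 3 at the exon-edge motif (expected 0.80) and 1 at the other, and no enzyme-only site at either. MRPS18A had 3 in each library. MRPL42 went the other way, with 2 sites in RBFOX2-INSCRIBE and 4 in the enzyme-only control. MRPL35 and MRPL37 had 1 each in RBFOX2-INSCRIBE and none in the other. These are counts of 5 or fewer, and each motif was singled out for having a site.

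**Figure D2:**
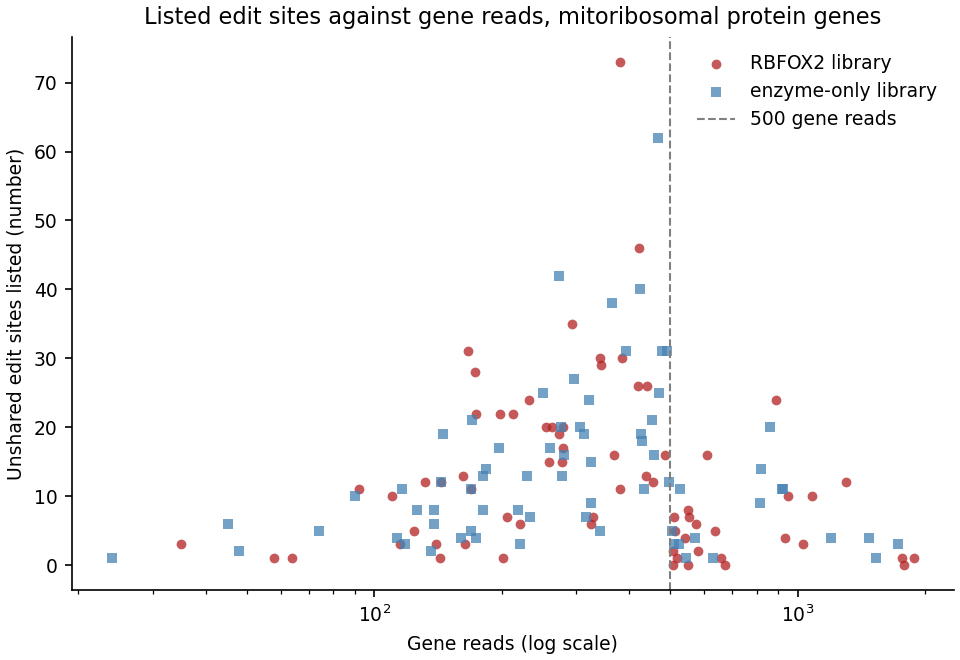
Number of unshared sites listed (y axis) against gene reads (x axis, log scale) for each member in RBFOX2-INSCRIBE (red circles) and enzyme-only control (blue squares). The dashed line marks 500 reads, from which a site needs 2 converted reads to be listed. Counts reach 73 in RBFOX2 and 62 in enzyme-only below the line, and from the line on the highest count is 24 in either library.

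Per 1000 gene reads, members held 28.3 sites in RBFOX2-INSCRIBE (26.5 to 30.2) and 33.8 in the enzyme-only control (31.7 to 36.0), which is the reverse of the other genes, with 43.7 and 39.4. This order rests on 7 members that had 500 or more reads in RBFOX2-INSCRIBE and fewer in the enzyme-only control. Those 7 listed 19 sites in RBFOX2-INSCRIBE and 232 in the enzyme-only control. The 45 members with fewer than 500 reads in both libraries listed 754 sites against 603, a ratio of 1.25 (1.12 to 1.39), and the 6435 other genes of that class also had 1.25 (1.24 to 1.26). The 15 members with 500 or more reads in both listed 102 and 104 sites, a ratio of 0.98 (0.74 to 1.30). The 768 other genes of that class listed 7689 and 4526, a ratio of 1.70 (1.64 to 1.76), which lies above the member interval. With the same minimum of converted reads in both libraries, the higher of the 2 for each gene, members had 875 sites against 708, a ratio of 1.24 (1.12 to 1.37), and other genes 1.29 (1.28 to 1.30). On that minimum the 15 deep members kept 102 sites in RBFOX2-INSCRIBE and 83 in the control, which makes 1.23 (0.91 to 1.66). The other genes of the class had 2.04 (1.96 to 2.12), again above the member interval. Of these, 22 respiratory chain genes had 2.01 (1.53 to 2.66), and 31 cytosolic ribosomal protein genes 1.26 (0.84 to 1.88), close to the members.

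Among single genes, 38 members had at least 20 sites over both libraries, and 2 of them were past 2-fold higher in RBFOX2-INSCRIBE on the log2 ratio scaled by the library totals, as were 16.5% of all 3552 genes tested. Past 2-fold higher in the enzyme-only control were 8 members, against 14.6% of all genes. Of these 8, 6 were in the class that crossed 500 reads between the libraries. With the common minimum of converted reads, 31 members had 20 sites, and 1 was past 2-fold in the RBFOX2 direction (15.6% of all genes) and 3 in the other (13.4%). The median log2 ratio of members was then 0.00 and that of all genes 0.03.

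**Figure D3:**
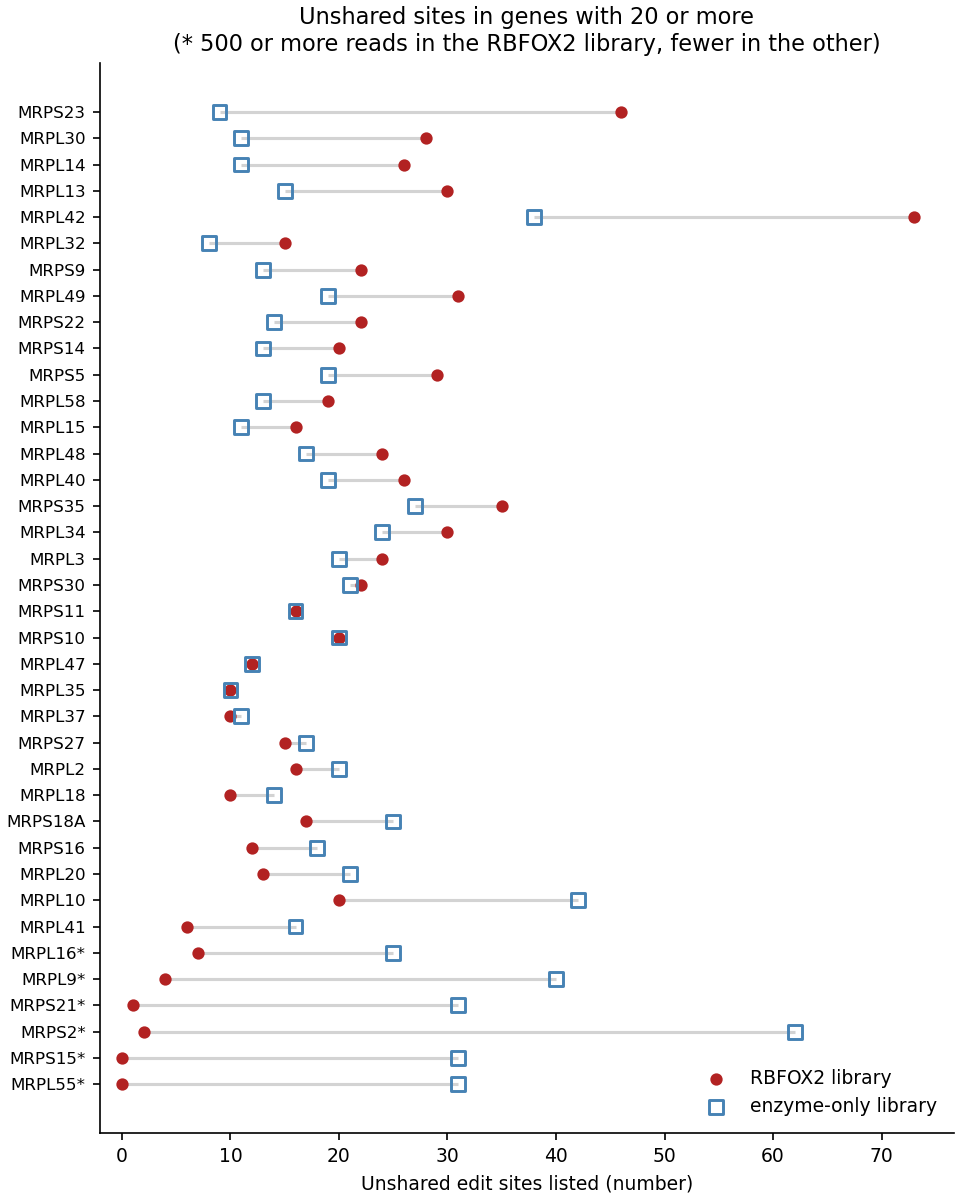
Unshared sites (x axis) of the 38 members with 20 or more over both libraries, ordered by log2 ratio, in RBFOX2-INSCRIBE (filled red circles) and enzyme-only control (open blue squares). The 6 starred genes had 500 or more reads in RBFOX2-INSCRIBE and fewer in the other. MRPS23 at the top had 46 and 9 sites, and starred MRPL55 at the bottom 0 and 31.

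MRPS23, a protein of the small subunit, had the highest ratio. It listed 46 sites in RBFOX2-INSCRIBE, from 422 reads, and 9 in the enzyme-only control, from 324 reads, a log2 ratio of 2.02 (1.03 to 3.30). Another 12 sites of MRPS23 were listed in both libraries. Counting these too, its converted reads were 180 per 1000 gene reads in RBFOX2-INSCRIBE and 74.1 in the enzyme-only control. Of the other genes of similar depth that are compared with MRPL42 below, 11.2% had as high a ratio of these loads. MRPS23 has no UGCAUG in its exons, and no site of either library lay within 50 nt of one.

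MRPL30 was next, with 28 and 11 sites from 173 and 169 reads, a log2 ratio of 1.04 (0.02 to 2.23). On the common minimum it was 0.95 (-0.07 to 2.14), an interval that includes 0. MRPL14 had 26 and 11 sites from 419 and 433 reads (log2 ratio 0.93, -0.10 to 2.13). MRPL13 had 30 and 15 from 341 and 324 reads, and MRPL32, which is cut to its mature form by an inner membrane protease, 15 and 8 from 278 and 218 reads. The intervals of MRPL14, MRPL13 and MRPL32 include 0.

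MRPL42, a protein of the large subunit, had the highest load of converted reads of all members in each library. It listed 73 and 38 sites from 381 and 364 reads, and 31 more in both. Its log2 ratio was 0.66 (0.08 to 1.27), and 0.57 (-0.01 to 1.18) on the common minimum, where the interval includes 0. Converted reads summed to 436 per 1000 gene reads in RBFOX2-INSCRIBE and 214 in the enzyme-only control. Among the 3423 other genes with at least 100 and fewer than 500 reads in both libraries, 0.760% had as high a load in RBFOX2-INSCRIBE and 5.43% in the enzyme-only control, and 16.6% had as high a ratio of the loads.

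**Figure D4:**
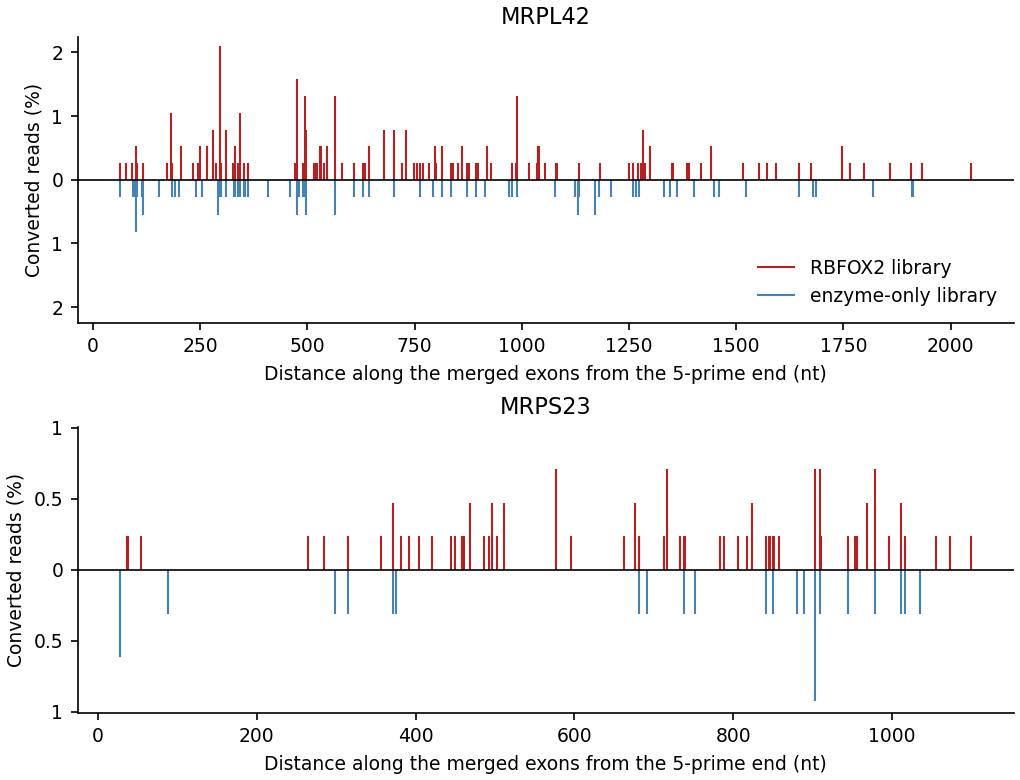
Percent of gene reads converted (y axis) at each listed site of MRPL42 and MRPS23, shared sites included, along the merged exons from the 5′ end (x axis, nt), with RBFOX2-INSCRIBE drawn upward in red and the enzyme-only control downward in blue. MRPL42 listed 104 sites in RBFOX2-INSCRIBE and 69 in the other, and MRPS23 58 and 21.

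At the isoform level, editsC is here the percentage of an isoform's exonic cytosines that hold an unshared site, so shared sites are left out of it. Of 16 MRPL42 isoforms, 14 held a site of RBFOX2-INSCRIBE, with editsC from 12.97% to 27.1%, and the same isoforms had 5.71% to 12.8% in the enzyme-only control. MRPS23 had 9 isoforms, with 14.8% to 33.3% in RBFOX2-INSCRIBE and 2.89% to 5.49% in the enzyme-only control. Each of these isoforms was higher in RBFOX2-INSCRIBE, but isoforms of a gene share exons and sites and are no replicates. Over the 752 member isoforms with a site, the median editsC was 3.22% in RBFOX2-INSCRIBE and 3.71% in the enzyme-only control, 331 being higher and 367 lower in the former. Over the 383 isoforms of genes under 500 reads in both libraries the order turned, with medians of 5.60% and 4.46%, 229 higher and 127 lower.

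The lowest ratios belonged to genes near 500 reads. MRPL55 listed 0 sites from 508 reads in RBFOX2-INSCRIBE and 31 from 490 reads in the enzyme-only control. MRPS15 listed 0 from 551 and 31 from 477. MRPS2 listed 2 from 508 and 62 from 467, and MRPS21 1 from 517 and 31 from 392. Each of these genes was past 500 reads in RBFOX2-INSCRIBE and not in the control, so a site needed 2 converted reads in the former and 1 in the latter. With 2 converted reads required in both libraries, MRPL55 had 0 and 1 sites, MRPS15 0 and 3, MRPS21 1 and 0, MRPL9 4 and 4, and MRPL16, a protein near the catalytic centre of the large subunit, 7 and 5. MRPS2, of the small subunit, still had 2 against 9, and its site of 5 converted reads of 467 was among the most converted of the enzyme-only control.

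MRPL10 and MRPL41 were lower in RBFOX2-INSCRIBE without crossing that limit. MRPL10, which anchors the stalk that recruits translation factors, had 20 and 42 sites from 262 and 273 reads, a log2 ratio of -1.32 (-2.19 to -0.54). Its converted reads were 103 per 1000 gene reads in RBFOX2-INSCRIBE and 209 in the enzyme-only control. MRPL41 had 6 and 16 sites from 324 and 280 reads (log2 ratio -1.62, -3.33 to -0.26).

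Below 500 reads no site is lost to the limit, and the load of a gene can be read as its converted reads per 1000 gene reads, shared sites included. The median over the 45 members of this class was 82.4 in RBFOX2-INSCRIBE (quartiles 36.8 and 118) and 74.1 in the enzyme-only control (47.2 and 93.5). The load was higher in RBFOX2-INSCRIBE in 26 of 45 members (57.8%, 42.2 to 72.3) and in 3655 of 6435 other genes (56.8%, 55.6 to 58.0), whose medians were 101 and 90.9. Summed over genes, members had 1059 converted reads in RBFOX2-INSCRIBE and 804 in the enzyme-only control, a ratio of 1.32 (1.20 to 1.45) where gene reads had a ratio of 1.07. In other genes these were 1.26 (1.25 to 1.27) and 1.11. Among members, MRPL42 alone supplied 166 of the 1059 converted reads in RBFOX2-INSCRIBE and 78 of the 804 in the enzyme-only control.

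**Figure D5:**
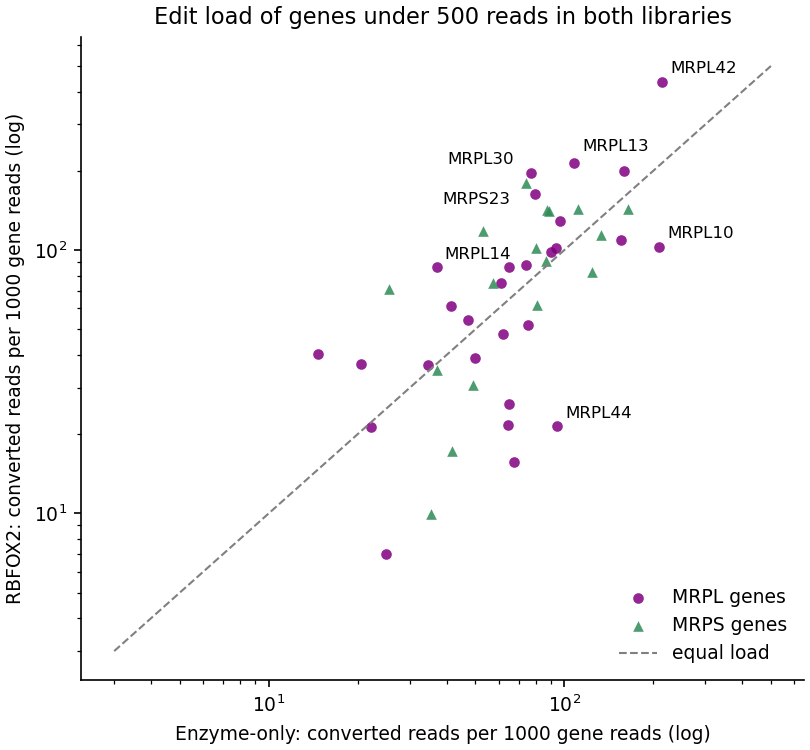
Converted reads per 1000 gene reads, shared sites included, in RBFOX2-INSCRIBE (y axis, log) against the enzyme-only control (x axis, log) for the 45 members under 500 reads in both, MRPL genes as purple circles and MRPS genes as green triangles. The dashed line marks equal load, and 26 of 45 points lie above it, with MRPL42 at the upper right (436 and 214) and MRPL10 below the line (103 and 209).

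Sites listed in both libraries give a direct comparison at the same cytosine. Of 169 shared positions, 168 were listed in the same gene in both, in 49 members. Converted reads were equal at 112 of them, higher in RBFOX2-INSCRIBE at 44 and higher in the enzyme-only control at 12, and they summed to 327 and 249, a ratio of 1.31 (1.11 to 1.55). Gene reads of the 67 members listed in both had a ratio of 1.11. At the 12015 shared sites of other genes converted reads summed to 101751 and 115730, a ratio of 0.88 (0.87 to 0.89), where gene reads had 1.07. MRPL42 held 31 of these sites, of which 12 were higher in RBFOX2-INSCRIBE and 1 in the other. Without MRPL42 the ratio was 1.22 (1.01 to 1.46). At shared sites of genes under 500 reads, members had a ratio of 1.37 (1.11 to 1.70), or 1.21 (0.94 to 1.56) without MRPL42, and other genes 1.10 (1.08 to 1.13).

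The 6 most converted shared sites, by converted reads of both libraries, were chosen after their values were seen. Of these, 5 are shown for their place in the protein, with the converted cytosine as a capital, and the other, in MRPL13 (L39F, 6 and 1 converted reads), is given without sequence.
MRPL38: cgagtccccctgcaCgtggcctacgctgt
MRPL12: gtgtctgtgccgtgCgacatatgaggagc
MRPL42, T52I: agagcttgctctgaCttctgatggcagga
MRPS7: aagggaggccgtttCtaccaggtgaatga
MRPL42, L112F: ctatgatagaacaaCttagcaaaatgttc

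The MRPL38 site (chr17:75901767-75901795, minus strand) was synonymous and had 31 converted reads of 580 in RBFOX2-INSCRIBE (5.34%) and 19 of 511 in the enzyme-only control (3.72%). The MRPL12 site (chr17:81704258-81704286, plus strand) would turn an arginine codon into a stop codon and had 11 converted reads in each library, of 1785 and 1530. MRPL12 is the stalk protein of the large subunit. The MRPL42 sites change threonine to isoleucine (T52I, chr12:93479394-93479422, plus strand) and leucine to phenylalanine (L112F, chr12:93487597-93487625, plus strand). They had 8 and 6 converted reads of 381 in RBFOX2-INSCRIBE and 1 and 2 of 364 in the enzyme-only control. The MRPS7 site (chr17:75263487-75263515, plus strand) was synonymous and went the other way, with 3 converted reads of 1302 in RBFOX2-INSCRIBE and 6 of 1195 in the control.

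The deepest members were MRPS26, MRPL12, MRPS34, MRPS7, MRPL37 and MRPL4, with 1028 to 1877 reads in RBFOX2-INSCRIBE and 919 to 1721 in the enzyme-only control. At such depth at least 3 converted reads were needed in RBFOX2-INSCRIBE, and few sites were listed. MRPS7, a protein of the small-subunit head, had 12 and 4, MRPL37 10 and 11, MRPL4 3 and 11, MRPS34 1 and 4, MRPS26 1 and 3, and MRPL12 0 and 1. Below are the sites of RBFOX2-INSCRIBE with the most converted reads, followed by the 3 of the enzyme-only control with 5 converted reads. They are shown for the base before the capital cytosine, since APOBEC1 prefers A or U there.
MRPS26, RBFOX2: gtgctgccagcgcgCggccgcaagacccg
MRPS7, RBFOX2: ggagctcaagaagaCtcagctcatcaaag
MRPS7, RBFOX2: agggagcacattgaCttgggaatttcctc
MRPS7, RBFOX2: tgtggtgcagcattCagtgaaactggctg
MRPS7, RBFOX2: attctcacgctgaaCtggtgtagcatgtg
MRPL37, RBFOX2: atatcacccatcatCgatcttcatgaatg
MRPS2, enzyme-only: aaccagtggctgagCggaccaacgttgcc
MRPS26, enzyme-only: ggtgtgtacagcctCagcgcaccaggaga
MRPL12, enzyme-only: cggtgaatgtgcctCtggtggctgctgag

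In the order printed, the RBFOX2 sites lay at chr20:3046129-3046157, chr17:75262611-75262639, chr17:75266131-75266159, chr17:75266282-75266310, chr17:75266257-75266285 and chr1:54210074-54210102, all on the plus strand. They had 7 converted reads of 1877 (MRPS26, synonymous), 6, 6, 6 and 5 of 1302 (MRPS7, the first changing threonine to isoleucine, T71I, the others in the 3′UTR) and 5 of 1082 (MRPL37, synonymous). The enzyme-only sites lay in 3′UTRs at chr9:135504278-135504306, chr20:3048060-3048088 and chr17:81707468-81707496, on the plus strand. Of the 6 most converted sites of each library, 5 had A or U before the cytosine.

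Over all exonic sites of members, A or U preceded the cytosine in 73.0% (69.9 to 75.9) of RBFOX2-INSCRIBE and 62.5% (59.3 to 65.6) of the enzyme-only control, where 47.4% and 44.8% of the cytosines of the same genes have it. The intervals of the libraries do not overlap. Other genes had 71.7% and 63.9%, both inside the member intervals. Repeated conversions, of 2 reads or more, made up 24.01% (21.2 to 27.0) and 18.3% (15.9 to 20.9) of member sites, and 14.8% and 9.71% in other genes. In genes under 500 reads the member shares were 11.01% (8.86 to 13.5) and 7.63% (5.64 to 10.04), and those of other genes 7.28% and 4.39%. Respiratory chain genes of this class had 13.1% and 6.05%, and cytosolic ribosomal protein genes 7.50% and 3.30%. Depth was not matched, with 11123 reads over 45 members and 1001909 over 6435 other genes in RBFOX2-INSCRIBE.

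Coding sequence, which took precedence where annotated transcripts differ, held 56.98% of member sites in RBFOX2-INSCRIBE and 58.3% in the enzyme-only control, against 34.6% and 35.3% of the cytosines of the same genes. Counted with the 3′UTR first, 57.2% and 51.6% of sites lay in the 3′UTR, so which region holds most sites depends on this order. With coding sequence first, the 3′UTR held 39.0% (35.8 to 42.4) and 32.2% (29.2 to 35.3), against 31.6% and 27.2% of cytosines. These cytosine shares come from the merged exons of all isoforms, which also hold sequence outside coding sequence and UTRs, where few sites fell. Coding sequence and 3′UTR thus both exceeded their shares in each library, and a preference for coding sequence cannot be read from them. In genes under 500 reads the 3′UTR shares were 38.4% (34.9 to 42.0) and 34.8% (31.0 to 38.8), whose intervals overlap. The 5′UTR held 2.27% and 7.52%, but 19 of the 71 enzyme-only 5′UTR sites were in MRPL55 and 18 in MRPS21, both of which crossed 500 reads. Under 500 reads the 5′UTR shares were 2.66% (1.63 to 4.08) and 4.31% (2.84 to 6.25). Of 496 coding sites of RBFOX2-INSCRIBE in the canonical transcripts, 40.7% were synonymous, 53.0% changed an amino acid and 6.25% (4.29 to 8.75) would make a stop codon. If sites fell evenly over the coding cytosines of each gene, 37.9%, 54.5% and 7.60% would do so. The 540 coding sites of the enzyme-only control gave 45.7% (41.5 to 50.05) synonymous, 47.6% (43.3 to 51.9) missense and 6.67% (4.71 to 9.11) stop, where 40.8%, 52.1% and 7.07% were expected. Synonymous and missense shares of the control thus lay outside counting error of the even expectation, and those of RBFOX2-INSCRIBE (36.4 to 45.2 and 48.5 to 57.5) did not.

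Other genes of mitochondrial translation were taken from lists by function and described by counts. Of the mitoribosome subunits with other symbols (5 genes, 4 listed), DAP3, the GTP-binding protein of the small subunit, had 49 and 25 sites from 364 and 327 reads. Of 25 assembly factors, 23 were listed and 15 had at least 20 sites. Among these 15, 4 were past 2-fold higher in RBFOX2-INSCRIBE and 0 in the other. They were RCC1L (44 and 13 sites), the RNA helicase DDX28 (36 and 12), the rRNA methyltransferase TFB1M (15 and 5) and NGRN (19 and 7). The median log2 ratio of the 15 was 0.54, and 0.45 with the common minimum, against 0.07 and 0.03 over all genes. Of the translation factors (16 genes, 14 listed), 8 had 20 sites, of which 2 were past 2-fold in the RBFOX2 direction, the initiation factor MTIF3 (28 and 6) and the recycling factor MRRF (22 and 8), and 1 in the other, the formyltransferase MTFMT (6 and 16). The background for all of these counts is the 16.5% and 14.6% of all tested genes given above.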

How the data were processed

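Edit sites of 2 PacBio long-read libraries of HEK293T cells were analysed, 1 per group, with groups taken from the sample descriptions. For each site the authors deposited a count of converted reads, a count of reads of the whole gene and an edit fraction that is their quotient. The authors also deposited isoform models, which carry exon positions of 119827 isoforms and no levels. The build given in the labels is hg38, and the methods of the study describe consensus reads from ccs, alignment with pbmm2, isoforms from IsoQuant and removal of SNPs. They name another library kit than the labels do and speak of replicates, while these tables carry PacBio collapse identifiers and 1 library per group, so whether they come from that pipeline is not settled. Because the fraction uses reads of the whole gene, positions found in few isoforms read low, and the limit of 0.002 removes weakly edited sites of deep genes.

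Loci were assigned to GENCODE 44 genes, and all listed positions on the strand of their locus were cytosines. A site is shared when both libraries list its position and strand. Coding sequence took precedence over 3′UTR, and 3′UTR over 5′UTR. Expected numbers were sums, over the sites, of the share of the gene's exonic cytosines with the feature. Exonic cytosines were those of the merged exons of all isoforms, whatever the reads of each isoform. Motifs were read from the genome on the strand of the gene. Log2 ratios used a pseudocount of 0.5 and the library totals of unshared sites (105951 and 87698), and their intervals come from the share of RBFOX2 sites. Intervals are Clopper-Pearson at 95% (scipy 1.17.1), except Poisson intervals of rates. PCR reads without molecular identifiers are not independent molecules, so the intervals cover counting error only. The calculations were run on simulated sites and returned the planted ratios. Simulated motif sites were drawn from the same expected shares, so this checks the arithmetic and not whether sites spread evenly over exons.

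Named members were the 6 highest and 6 lowest log2 ratios among genes with at least 20 sites, the 6 with the most reads, those with a site of at least 2 converted reads within 50 nt of UGCAUG, and those holding the 6 most converted sites of each library. Members, lists and tests were chosen with earlier results of these data known.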

Additional observations from a re-analysis of the deposited data

How the results depend on the processing

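No paired analysis was possible because each group has 1 library and the replicate numbers of the libraries, 1 and 2, differ. Of the alternatives run, 52 of 72 left the value inside the counting interval of the reported one, or a count or an editsC median, which has no such interval, within 1.5 times of it. With 1 isoform per gene the editsC medians were 2.11% in RBFOX2-INSCRIBE, a move past 1.5 times, and 2.51% in the enzyme-only control. Shared sites raised the rate to 33.7 sites per 1000 gene reads in RBFOX2-INSCRIBE and 39.8 in the enzyme-only control, and the share after A or U to 66.2% in the latter. The common minimum of converted reads lowered the enzyme-only rate to 26.2, below the 29.2 of RBFOX2-INSCRIBE, so the order of the libraries turned. In genes under 500 reads in both, a class chosen after seeing the data, the rates were 67.8 and 57.9. At most 500 reads in both gave shares of repeatedly converted sites of 11.01% and 7.63%. Sites with at least 2 converted reads followed A or U in 89.2% and 74.0%. Counting 3′UTR before coding sequence put 57.2% and 51.6% of sites there. With a minimum of 10 sites, 6 of 54 members were past 2-fold in the RBFOX2 direction (18.9% of all genes) and 13 in the other (16.8%). With 50 sites these were 1 of 7 (11.5%) and 2 of 7 (10.4%), with the common minimum 1 and 3 of 31 (15.6% and 13.4%), and with shared sites kept 1 and 8 of 43 (13.6% and 12.55%). The motif ratio ranged from 0.73 to 1.30 in RBFOX2-INSCRIBE and from 0.73 to 1.16 in the enzyme-only control, and each value lay inside the reported interval. Leaving out MRPL42, which was not among these alternatives, gave 1.09 (0.65 to 1.72) and 0.51 (0.22 to 0.99). That gene held 4 of the 12 enzyme-only sites by a motif. The higher ratio of RBFOX2-INSCRIBE at 50 nt depended on the window. The ratios were 1.17 and 1.16 within 200 nt, and 0.73 and 0.77 within 20 nt, where the order turned. The remaining settings kept the order found at 50 nt. At 50 nt the motif comparison rests on 20 sites in RBFOX2-INSCRIBE and 12 in the enzyme-only control, which leaves wide intervals. At 500 or more reads sites of 1 converted read are not detectable in these data.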
